A study of Caenorhabditis elegans with 2 samples.

Results

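The proteasome genes of Caenorhabditis elegans were examined for binding of EFL-1, which belongs to the E2F transcription factors. They were taken as all protein-coding genes whose symbol begins with pas-, pbs-, rpt- or rpn-, which gave 33 of 19973 nuclear protein-coding genes: 7 pas, 7 pbs, 6 rpt and 13 rpn genes. The material was whole young adult hermaphrodites of strain YL479, a transgenic line with EFL-1 fused at its C terminus to GFP and FLAG, in 2 biological replicates that formed 1 group. Which promoter drives the fusion is not stated in the sources used here. Chromatin was sonicated and pulled down, with anti-GFP antibody per the sample descriptions (the antibody field reads efl-1), and sequenced. The values are the authors' peak lists on build ce11. No control library was analysed here, and read counts are not among the values, which leaves the depth unknown.

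The proteasome is the barrel-shaped protease that degrades ubiquitin-tagged proteins. Its core particle is built of alpha rings (pas genes), which gate the entrance, and beta rings (pbs genes), which hold the cutting sites. The regulatory particle docks on the core with a base, made of the ATPases that unfold substrates (rpt genes) and a few non-ATPase subunits, and a lid, made of further non-ATPase subunits (both rpn genes). In worms, the SKN-1A form of the transcription factor SKN-1 raises proteasome subunit genes when proteasome activity is impaired. E2F factors with their DP partner bind short GC-rich sites, and in the DREAM complex they act together with LIN-35 and the MuvB core, of which LIN-54 binds a sequence called the cell cycle gene homology region (CHR).

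The following sequences, from the reference genome WBcel235 (the same assembly as ce11, credited to RefSeq), carry the results on sequence below. They are a peak with high signal from each group (rpn-11, pas-6, pbs-1 and rpt-1) and some others whose window held an E2F or SKN-1 sequence, with rpn-12 as an unbound gene for contrast. Each runs 5′ to 3′ on the strand of the gene, up to 75 bp either side of the summit, and was cut where an annotated exon began. Capitals mark E2F, SKN-1 and CHR sequences on either strand.
rpn-11 (chrII:4044547-4044634, minus strand): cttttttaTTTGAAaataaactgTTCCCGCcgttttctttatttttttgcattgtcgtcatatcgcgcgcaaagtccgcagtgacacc
rpn-6.1 (chrIII:6961264-6961414, minus strand): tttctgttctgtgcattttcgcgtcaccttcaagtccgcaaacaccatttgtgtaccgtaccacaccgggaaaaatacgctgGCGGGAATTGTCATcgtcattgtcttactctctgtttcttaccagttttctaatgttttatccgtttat
rpn-2 (chrIII:6198776-6198926, plus strand): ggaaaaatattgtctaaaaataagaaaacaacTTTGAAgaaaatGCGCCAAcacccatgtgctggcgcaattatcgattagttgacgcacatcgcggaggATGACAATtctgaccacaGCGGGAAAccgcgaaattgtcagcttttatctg
rpn-6.2 (chrIII:9001577-9001727, minus strand): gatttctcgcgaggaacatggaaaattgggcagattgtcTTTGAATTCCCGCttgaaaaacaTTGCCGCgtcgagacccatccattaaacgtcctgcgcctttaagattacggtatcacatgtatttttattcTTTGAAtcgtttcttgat
pas-6 (chrV:5584509-5584659, minus strand): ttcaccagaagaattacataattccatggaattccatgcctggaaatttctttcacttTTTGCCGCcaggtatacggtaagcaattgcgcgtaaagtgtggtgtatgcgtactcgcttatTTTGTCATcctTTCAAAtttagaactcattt
pbs-1 (chrIV:1709868-1710018, minus strand): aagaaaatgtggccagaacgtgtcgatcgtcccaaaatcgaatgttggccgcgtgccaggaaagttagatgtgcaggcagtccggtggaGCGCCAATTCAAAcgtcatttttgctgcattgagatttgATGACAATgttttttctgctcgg
rpt-1 (chrV:11982428-11982578, minus strand): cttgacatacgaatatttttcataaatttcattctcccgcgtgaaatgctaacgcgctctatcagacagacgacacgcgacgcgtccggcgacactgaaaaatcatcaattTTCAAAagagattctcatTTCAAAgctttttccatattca
rpt-4 (chrII:43739-43889, minus strand): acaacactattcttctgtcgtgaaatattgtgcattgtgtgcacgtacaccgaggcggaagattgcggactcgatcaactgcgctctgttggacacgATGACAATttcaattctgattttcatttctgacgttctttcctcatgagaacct
rpt-6 (chrIII:12370119-12370269, plus strand): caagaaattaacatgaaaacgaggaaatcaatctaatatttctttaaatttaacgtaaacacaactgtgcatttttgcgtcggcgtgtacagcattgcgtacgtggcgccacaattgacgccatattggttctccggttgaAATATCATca
rpn-12 (chrII:11652873-11653023, plus strand): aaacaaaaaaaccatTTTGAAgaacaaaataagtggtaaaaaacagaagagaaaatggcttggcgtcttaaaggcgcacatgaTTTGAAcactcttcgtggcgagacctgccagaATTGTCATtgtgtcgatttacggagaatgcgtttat

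EFL-1 was bound at the starts of 19 of the 33 proteasome genes, where bound means that the summit of a peak in the authors' list thresholded by the irreproducible discovery rate (called reproducible here) lay within 500 bp of an annotated start. This is 57.6% (95% Wilson interval 40.8 to 72.8%), against 1775 of 19973 protein-coding genes, or 8.89%, by the same rule. Each of the 19 genes had a peak of its own: no peak served more than 1 proteasome gene. Bound genes were found in all groups, with 9 of 13 rpn, 4 of 7 pbs, 3 of 6 rpt and 3 of 7 pas genes. The Wilson intervals of the groups were 42.4 to 87.3% for rpn, 25 to 84.2% for pbs, 18.8 to 81.2% for rpt and 15.8 to 75% for pas, so the groups overlapped widely and no order among them is read from these counts. Within the regulatory particle, 6 of 8 lid genes were bound, and 12 of its 19 genes in all, against 7 of 14 genes of the core. The 8 lid genes were rpn-3, rpn-5, rpn-6.1, rpn-7, rpn-8, rpn-9, rpn-11 and rpn-12. They leave out rpn-6.2, a second copy related to rpn-6.1 that was bound, and dss-1, which carries another name and was unbound. Intervals cover counting error only, genes are not replicates, and no test was made of these shares. In whole animals, binding in fewer cells and weaker binding in each cell cannot be told apart.

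**Figure D1:**
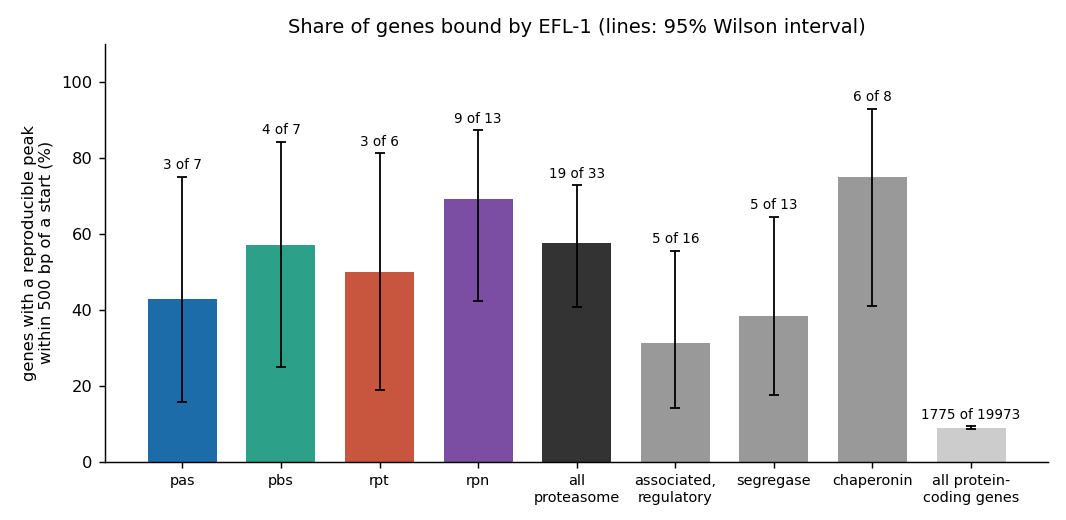
Percent of genes with a reproducible EFL-1 peak within 500 bp of a start, for the 4 proteasome groups, all 33 members, 3 lists of other proteostasis genes and all nuclear protein-coding genes; lines are 95% Wilson intervals and labels give the numbers of genes. All 4 proteasome groups lie above the 8.89% of all genes, and their intervals overlap each other.

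The strongest peaks at proteasome genes were those of the lid genes rpn-11 and rpn-6.1. The rpn-11 gene encodes the metalloprotease that removes ubiquitin chains from substrates, and its peak reached 428 pooled (316 in replicate 1, 112 in replicate 2). The signal value is the authors' own, on a scale that is not stated. This peak ranked 46 of the 2179 nuclear reproducible peaks, 28 in replicate 1 and 112 in replicate 2, and its summit lay 13 bp upstream of the start. The value is close to that at efl-1 itself, which was 440 pooled (313 in replicate 1, 125 in replicate 2). Whether the transgene of this strain adds to the signal at efl-1 was not tested. The rpn-6.1 gene, a scaffold of the lid whose raised expression increases proteasome activity in worms, came next with 277 pooled (172 in replicate 1, 102 in replicate 2). Its summit lay inside the gene, in an intron of the longer transcript 662 bp past the first start, and 399 bp upstream of the start of the shorter transcript.

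The other 4 bound lid genes had pooled values between 93.1 and 122, below those of pas-5, rpt-1, pas-6 and pbs-1. The median over the 6 bound lid genes was 118, against 169 over the 3 bound pas genes. The peak of rpn-5 had 122 pooled (81.8 in replicate 1, 43.1 in replicate 2). That of rpn-3 had 115 pooled (71.4 in replicate 1, 46.9 in replicate 2), and that of rpn-9 had 106 pooled (68.4 in replicate 1, 33.6 in replicate 2). The rpn-8 gene encodes the partner of the rpn-11 product, and its peak had 93.1 pooled (69.9 in replicate 1, 28.9 in replicate 2). All 4 were higher in replicate 1 than in replicate 2. Of the lid genes without a reproducible peak, rpn-7 had a pooled candidate of 40.6, just below the lowest nuclear reproducible peak of 45.6, and rpn-12 one of 11.9.

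In the base of the regulatory particle, rpt-1 had the highest signal of the ATPase genes. Its peak had 193 pooled (144 in replicate 1, 43.8 in replicate 2), with the summit 106 bp upstream of the start. The peaks of rpt-4 and rpt-6 were near the lower end of the list, at 50.7 and 48.5 in the pool. For rpt-4 the value was 37.4 in replicate 1 and 8.09 in replicate 2, and for rpt-6 it was 30.1 in replicate 1 and 23.1 in replicate 2. The rpt-4 summit lay in an intron, 152 bp upstream of an internal start and 2402 bp past the first start, and was closer to nfyc-1, which encodes a subunit of the factor NF-Y, at 93 bp. The highest pooled candidates were 27.8 at rpt-2, 20.5 at rpt-5 and 13.7 at rpt-3. The largest scaffold subunits of the base are encoded by rpn-1 and rpn-2. The rpn-2 peak had 126 pooled (52.2 in replicate 1, 75.3 in replicate 2), and the rpn-1 peak had 52.5 pooled (25.8 in replicate 1, 30.8 in replicate 2). Both were higher in replicate 2, unlike most proteasome peaks. Also unbound were rpn-10 and rpn-13, which encode ubiquitin receptors, with highest candidates of 28.5 and 23.8.

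In the alpha ring, pas-5 and pas-6 had strong peaks and pas-4 a weak one. The pas-5 peak had 242 pooled (147 in replicate 1, 96.3 in replicate 2), and the pas-6 peak 169 pooled (105 in replicate 1, 58.2 in replicate 2). The pas-4 peak had 58.8 pooled (31.5 in replicate 1, 23.6 in replicate 2). The other 4 alpha genes were unbound, with pooled candidates of 34.6 at pas-3, 24.5 at pas-1 and 20.4 at pas-7. At pas-2 no candidate lay within 500 bp in the pool or in either replicate, and it was the only such member; the nearest reproducible peak was 33425 bp away.

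In the beta ring, 1 of the 3 genes for catalytic subunits was bound. This was pbs-1, with 159 pooled (108 in replicate 1, 51.6 in replicate 2). The peaks of the non-catalytic subunit genes were lower, with 72.6 at pbs-3, 65.6 at pbs-7 and 46.3 at pbs-4 in the pool. The values were 44.5 in replicate 1 and 26.8 in replicate 2 for pbs-3, 50.1 and 16.8 for pbs-7, and 33.1 and 9.64 for pbs-4. For the catalytic genes pbs-2 and pbs-5 the highest candidates were 44.4 and 17.0, and for pbs-6 it was 15.9. The threshold of the list fell between pbs-4, ranked 2143 among nuclear pooled candidates, and pbs-2, ranked 2254. The pbs-2 candidate had 32.3 in replicate 1 and 6.21 in replicate 2, against 33.1 and 9.64 at pbs-4. A much stronger peak, of 790.0, lay 1326 bp from the pbs-2 start, near tba-2, an alpha-tubulin gene.

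**Figure D2:**
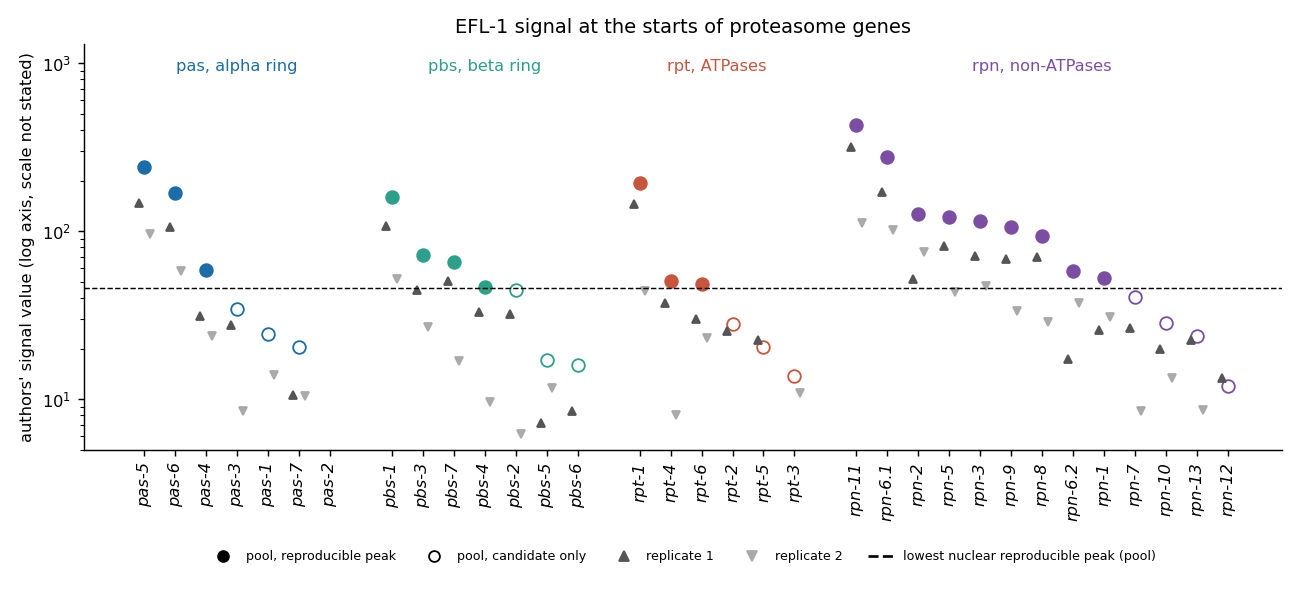
Signal value (log axis) of the highest pooled peak or candidate within 500 bp of each proteasome gene's starts (circles, filled where reproducible) and of the matching candidates in replicate 1 (upward triangles) and replicate 2 (downward triangles), ordered by pooled signal within each group. Values run from 428 at rpn-11 to 11.9 at rpn-12, pas-2 has none, and pbs-4 and pbs-2 sit on either side of the dashed line at 45.6.

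The proteasome peaks spread over the whole range of the list. When the 2179 nuclear peaks were ranked and cut into 4 equal parts, 6 of the 19 peaks were in the strongest part, 5 in the next, 3 in the one after and 5 in the weakest. Their median signal was 106, against 91.0 for the 1370 other reproducible peaks near a start. All of the 33 members but pas-2 had at least a pooled candidate within 500 bp, 32 in all, against 38% of protein-coding genes. The 13 candidates of unbound members ranged from 11.9 to 44.4, with a median of 23.8, and 7 of them overlapped a candidate in both replicates. That overlap was not counted over all pooled candidates outside reproducible peaks, so binding at unbound members is not read from it.

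All 19 proteasome peaks overlapped a candidate in both replicates, as did 2128 of the 2160 other reproducible peaks. The reproducible list derives from these candidates, so such an overlap says little. It left 19 bound members, against 8.78% of protein-coding genes under that requirement. With an overlap of 50% of both peaks 15 were matched in both replicates, and with summits at most 50 bp apart 14. The other reproducible peaks were not counted under these stricter rules, so neither count is read as a trait of proteasome peaks. Of the 19 peaks, 14 (73.7%) were among the strongest 2179 nuclear candidates of both, against 1499 of 2160 other reproducible peaks (69.4%). Counted by gene, these were 14 members, against 6.78% of protein-coding genes. The other 5 were within that range in 1 replicate alone. Those of pbs-4 (rank 9549), pbs-7 (rank 2902) and rpt-4 (rank 13870) were outside that range in replicate 2. Those of rpn-1 (rank 2691) and rpn-6.2 (rank 5652) were outside it in replicate 1. With the strongest 2179 candidates of replicate 2 alone, 16 members were bound (pbs-4, pbs-7 and rpt-4 were lost, so that 2 pbs genes remained), against 8.3% of genes. With those of replicate 1 alone, 18 were bound (rpn-1 and rpn-6.2 were lost and pbs-2 was gained), against 8.96% of genes. The rpn-6.2 gene, a second copy related to rpn-6.1, had 58.0 pooled (17.2 in replicate 1, 37.4 in replicate 2), a ratio of replicate 1 to replicate 2 of 0.461, the lowest of the 19. The signal was higher in replicate 1 at 16 of the 19 peaks. Over all 19 the median ratio of replicate 1 to replicate 2 was 1.81, against 1.70 over the other reproducible peaks. Across the 19 peaks the signal values of the replicates had a Spearman rho of 0.765, as a description across peaks that share 2 libraries. Summits in the replicates lay at a median of 7 bp from the pooled summit in replicate 1 and 17 bp in replicate 2, and at most 60 bp and 113 bp away.

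**Figure D3:**
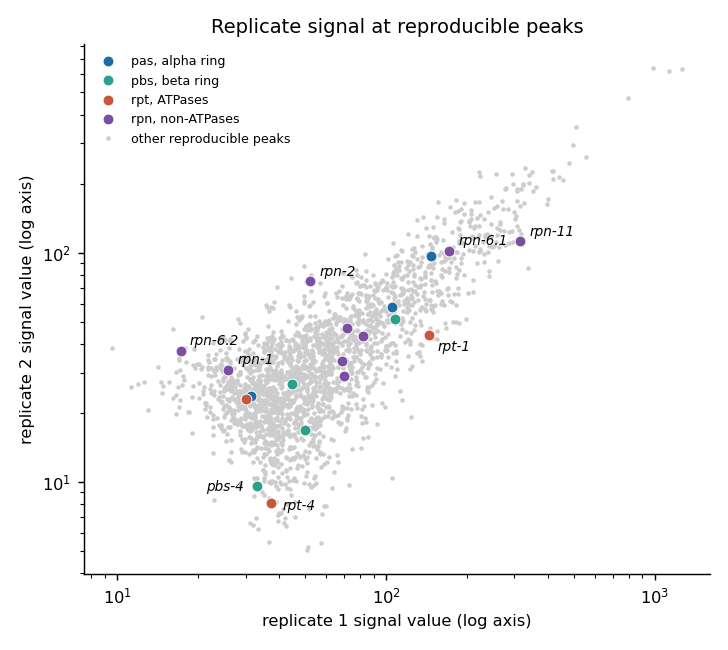
Signal values in replicate 1 (x axis) and replicate 2 (y axis), both on log axes, for the 19 proteasome peaks (coloured by group) and the other reproducible peaks matched in both replicates (grey). The proteasome peaks lie within the cloud of other peaks, with rpn-6.2 and rpn-2 above its middle and rpt-4 and pbs-4 below.

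The summits lay upstream of a start at 18 of the 19 bound genes. Over all 19 the median distance was 198 bp, against 190 bp for all bound genes. The shares of upstream and of intergenic summits over all reproducible peaks were not counted, so neither is read as a trait of proteasome genes. At 3 genes, rpn-11, pas-4 and rpn-5, the summit was within 50 bp of the start, at 12 it was 51 to 300 bp upstream, and at 4 it was farther. Of the summits, 15 were intergenic, 3 were in introns (rpn-6.1, rpn-6.2 and rpt-4), and that of pbs-3 was in an untranslated exon of ulp-2, a SUMO protease gene that lies 22 bp upstream on the same strand. The exception upstream was rpn-6.2, whose summit was 347 bp past its first start and 771 bp upstream of an internal one. None of the 19 summits lay within 100 bp of a tRNA gene, and 3 (pas-4, rpn-1 and rpn-3) lay that close to an annotated gene of another noncoding RNA. Such summits were not counted over all reproducible peaks either, so no trait of proteasome genes is read from them. Within 200 bp of a start, 10 members had a reproducible peak, against 4.75% of protein-coding genes, and within 1000 bp 19 members, against 11.3%. With the stronger 50% of the peaks 11 members were bound, against 5.33%. With starts of protein-coding transcripts alone 19 were bound, against 8.86%.

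**Figure D4:**
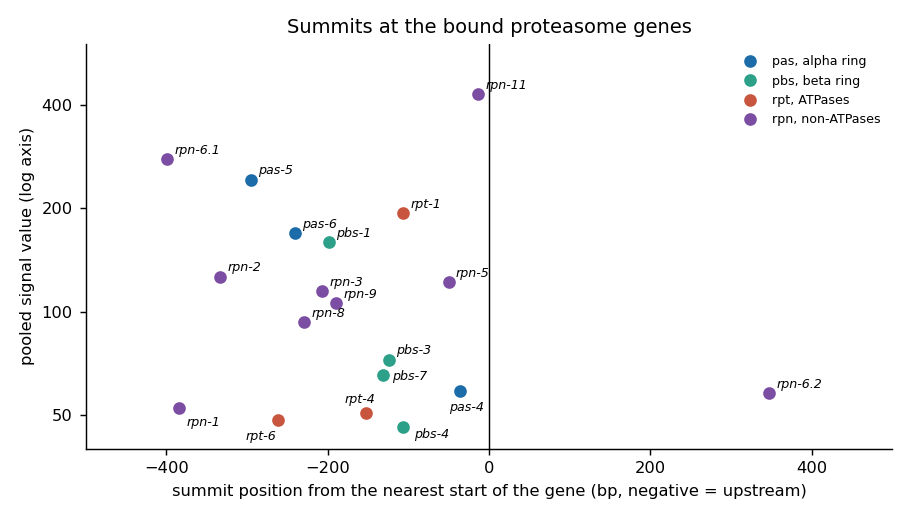
Position of the summit relative to the nearest start of each bound gene (x axis, bp, negative upstream) and pooled signal value (y axis, log) for the 19 proteasome peaks. All summits but that of rpn-6.2 lie upstream, from 13 bp at rpn-11 to 399 bp at rpn-6.1.

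At 10 of the 19 genes the peak also lay within 500 bp of the start of another gene, in each case a gene on the opposite strand; among all reproducible peaks near a start 29.7% served several genes. The rpn-5 peak was shared with scc-1, the mitotic cohesin gene, with the summit 50 bp from rpn-5 and 244 bp from scc-1. The rpn-3 peak was shared with the chaperone gene hsp-110, at 207 bp from rpn-3 and 237 bp from hsp-110. The pas-4 peak was shared with the RNA polymerase II subunit gene rpb-3, the rpn-1 peak with the oligosaccharyltransferase gene ribo-1, and the rpn-8 peak with the mitochondrial ribosomal protein gene mrps-6. Others were shared with nfyc-1 at rpt-4, K08D12.3 at pbs-1, F39H11.1 at pbs-7, C23G10.7 at rpn-2 and T06D8.9 at rpn-9. In all but the pair of rpt-4 and nfyc-1 the summit was nearer to the proteasome gene, so that 18 members were bound when each peak was given to its nearest start alone, against 6.84% of protein-coding genes. Which gene of a pair such a peak acts on was not measured.

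Many members have an upstream neighbour on the opposite strand. No distance limit was set here, and gaps ran from -1177 bp (an overlap) at rpt-4 to 3538 bp at pbs-4. The nearest upstream gene was on the opposite strand for 23 of the 33 members (69.7%), against 46.2% of protein-coding genes, and 14 of these 23 were bound, against 13.1% of all genes so arranged. Of the 8 members that follow a gene on the same strand within 500 bp, as genes of worm operons do, rpn-11, rpn-6.2 and pbs-3 were bound, against 7.82% of all such genes. The other 5 were pas-1, pbs-5, rpn-10, rpn-13 and rpt-3. Upstream of rpn-10, the same-strand neighbour mrpl-9, a mitochondrial ribosomal protein gene, had a reproducible peak of 48.9, 1435 bp from rpn-10. That peak also lay within 500 bp of a start of kin-3. The neighbour of pbs-5, K05C4.2, had a reproducible peak of 65.8, 1167 bp from pbs-5. Both members with a same-strand neighbour farther than 500 bp, pas-5 (1446 bp) and rpt-1 (503 bp), were bound, against 3.74% of all such genes. The gap of rpt-1 is just past this limit. With a limit of 1000 bp only pas-5 remained so arranged, against 2.73% of such genes bound. By chromosome, 5 of 10 members were bound on I, against 14.1% of its protein-coding genes, 5 of 7 on II, against 9.71%, and 5 of 8 on III, against 14.8%. On IV 2 of 3 members were bound, against 9.23% of genes, and on V 2 of 5, against 5.65%, and no member lay on X.

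E2F sequences were searched on both strands within 100 bp of the summit. The long form comprised the words TTTCCCGC, TTTCGCGC, TTTGCCGC and TTTGGCGC, and the short form the same words without their first T, so that every long match is also a short one. The short form was present at 8 of the 19 proteasome peaks (42.1%, Wilson interval 23.1 to 63.7%). It was at 30.7% of all 2179 reproducible peaks, 34.5% of the other reproducible peaks near a start and 8.94% of pooled candidates outside reproducible peaks. The proteasome peaks with it were those of pas-5, pas-6, pbs-1, rpn-2, rpn-6.1, rpn-6.2, rpn-8 and rpn-11, so no rpt peak held it. The long form was at 4 of the 19, at pas-5, pas-6, rpn-2 and rpn-8 (21.1%). It was at 17.2% of all reproducible peaks, 19% of the other reproducible peaks near a start and 4.55% of the candidates outside reproducible peaks. With 250 bp either side of the summit the short form was at 8 proteasome peaks, against 37.1% of all reproducible peaks, and with 50 bp at 6, against 25.4%. Median signal was 164 at the 8 peaks with the short form and 65.6 at the 11 without it, and these ranges overlapped: rpt-1, without it, had 193, and rpn-6.2, with it, had 58.0. Such medians were not taken over the other reproducible peaks, so this difference is not read as particular to proteasome peaks. At the candidates of the unbound members the short form was present at 1 of 13, that of pas-3. The CHR words TTCGAA and TTTGAA were at 16 of the 19 peaks (84.2%, interval 62.4 to 94.5%), against 56.4% of all reproducible peaks, 61.4% of the other reproducible peaks near a start and 53.6% of the candidates outside reproducible peaks. They were also at 9 of the 13 candidates of unbound members (69.2%, interval 42.4 to 87.3%), which overlaps the interval of the bound ones, and in 29 of the 33 promoters, against 69% of all promoters. A promoter here ran from 250 bp before to 50 bp after the first start. In promoters, the short form was present at 5 of 33 members (against 9.23%) and the long form at 2 (against 4.7%).

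A SKN-1 sequence was present at 9 of the 19 proteasome peaks (47.4%, Wilson interval 27.3 to 68.3%), against 152 of all 2179 reproducible peaks (6.98%) and 8.48% of the pooled candidates outside them. It comprised the words AATATCAT, AATGTCAT, ATTATCAT, ATTGTCAT, TATATCAT, TATGTCAT, TTTATCAT and TTTGTCAT. The 9 peaks were those of pas-6, pbs-1, rpt-4, rpt-6, rpn-1, rpn-2, rpn-6.1, rpn-8 and rpn-11, of all 4 groups. The sequence also occurred outside reproducible peaks: it was within 100 bp of the candidate summit at 4 of 13 unbound members, pbs-6, rpn-12, rpt-2 and rpt-5. This is 30.8% (interval 12.7 to 57.6%), which overlaps the interval of the bound members, so no difference between bound and unbound members is read from it. In promoters, it was present at 11 of 33 members (33.3%, interval 19.8 to 50.4%), 7 bound and 4 unbound, against 16.5% of all protein-coding genes. Median GC content was 37.3% in the windows of proteasome peaks and 40.3% in those of the other reproducible peaks. Among the 913 other peaks near a start with GC content in the range of the proteasome peaks, 30.3 to 42.8%, 7.12% held the sequence. Within 50 bp of the summit, 5 proteasome peaks held it, against 2.8% of all reproducible peaks, and within 250 bp 10 held it, against 21.8%. A match describes the letters in the window, binding of SKN-1 was not measured, and no test was made of these shares.

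The single word ATTGTCAT, singled out after the values were seen, made up much of this. It was at 5 of the 19 proteasome peaks (pbs-1, rpt-4, rpn-2, rpn-6.1 and rpn-11) and at 21 of all 2179 reproducible peaks (0.964%), and at 2 of the 13 candidates of unbound members (rpt-2 and rpn-12). Both the E2F short form and a SKN-1 sequence were at 6 proteasome peaks, those of pas-6, pbs-1, rpn-2, rpn-6.1, rpn-8 and rpn-11, against 2.57% of all reproducible peaks. At rpn-6.1 they overlapped by 1 base, as the unbroken run of capitals in the sequence above shows, and at rpn-2 the nearest pair was 10 bp apart. The SKN-1 word of rpn-11 lies 41 bp from the summit, beyond the stretch printed. Neither sequence was at 8 peaks, among them those of rpt-1, rpn-5, rpn-3 and rpn-9.

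**Figure D5:**
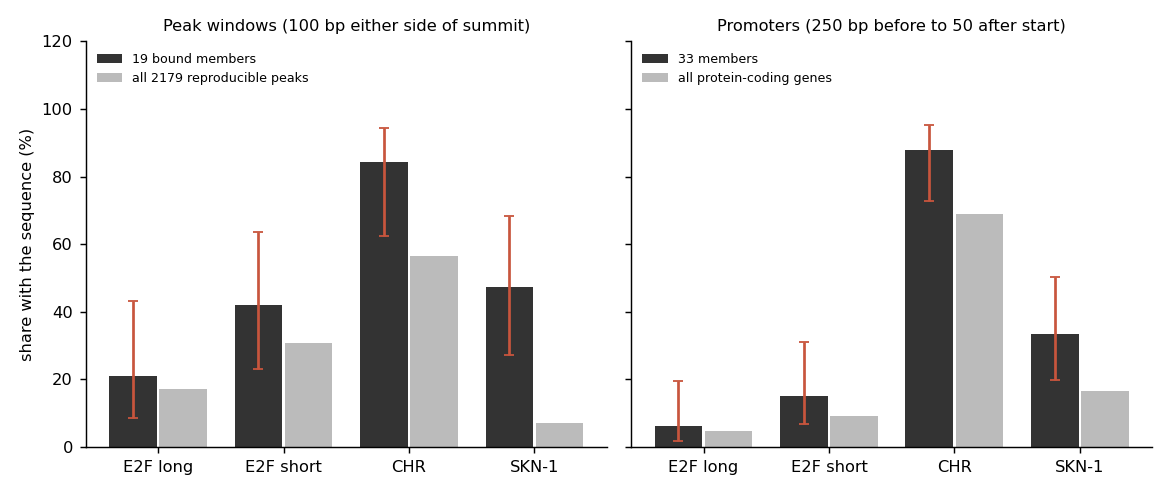
Percent of the windows around the 19 proteasome peaks and around all 2179 reproducible peaks (left), and of the promoters of the 33 members and of all protein-coding genes (right), with an E2F long, E2F short, CHR or SKN-1 sequence; lines are 95% Wilson intervals for the members. For SKN-1 the members stand at 47.4% against 6.98% at peaks and 33.3% against 16.5% in promoters.

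Genes that work with the proteasome but carry other names were also among the bound genes. A reproducible peak was found at 5 of 16 such genes, or 31.2% (interval 14.2 to 55.6%), where the share over the whole set of protein-coding genes was 8.89%. They were uba-1, the ubiquitin activating enzyme gene, with 207 pooled (110 in replicate 1, 98.0 in replicate 2), aip-1, a gene induced by arsenite, with 112, the proteasome-bound deubiquitinase gene usp-14 with 106, and the ubiquitin genes ubq-2 with 69.6 and ubq-1 with 55.9 in the pool. Unbound were the lid component gene dss-1, the deubiquitinase gene ubh-4, the activator gene psme-3, the assembly factor gene psmd-9, the shuttle genes rad-23 and ubql-1, and sel-1 and sel-11 of degradation from the endoplasmic reticulum. The same holds for skn-1, whose highest pooled candidate was 29.9, and for ddi-1 and png-1, whose products process SKN-1A. Among genes of the CDC-48 segregase, which pulls ubiquitin-tagged proteins out of complexes, 5 of 13 were bound (38.5%, interval 17.7 to 64.5%), against the same 8.89%, with 1895 at cdc-48.1, 315 at ufd-3, 138 at ufd-2, 129 at ubxn-1 and 60.2 at ubxn-2. Of the 8 genes of the CCT chaperonin, a folding machine also built of paralogous subunits, 6 were bound (75%, interval 40.9 to 92.9%), again against 8.89%, and cct-2 and cct-3 were not. The median signal of these 6 was 171 in the pool, against 92.8 for all bound genes. These intervals overlap that of the 33 proteasome genes, 40.8 to 72.8%, and the differences between lists were not tested.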

How the data were processed

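Peak lists of EFL-1 chromatin immunoprecipitation in 2 biological replicates were used on build ce11: 30000 candidate peaks per replicate and for the pool, and the optimal list thresholded by the irreproducible discovery rate, which per the descriptions deposited with the files derives from them. The signal value of each peak is as deposited by the authors, never negative and on a scale that is not stated. The sources used here name no aligner, peak caller, version or threshold. Other deposited columns hold the peak position and the offset of the summit from the peak start. Lists on ce10 were not used, since no annotation of that build was at hand, and no coordinates were converted.

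The summit was the peak start plus the offset. Starts were those of all transcripts in Ensembl release 115 (WBcel235), and the 28 mitochondrial peaks were left out. Replicate candidates were matched by an overlap of at least 1 bp, taking the highest. Depth is unknown, and 95% Wilson intervals cover counting error only. No test was made: there is 1 group, and genes are not replicates. The search for gene starts was tested on simulated peaks. The members, lists, motifs and the rule that names all members, the genes sharing their peaks and 3 lists of related genes were chosen with earlier results of these data known; the arrangement of neighbours with its limits of 500 and 1000 bp, the word ATTGTCAT, the nearest reproducible peaks and the count without members whose summit is nearer another gene were added after seeing the data. Alternatives were other distances, windows and overlaps, the stronger 50% of the peaks, single replicates, the nearest start alone and coding transcripts alone. Computation used Python 3.11.15, numpy 2.4.6, pandas 2.3.3, scipy 1.17.1 and matplotlib 3.10.9.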

Additional observations from a re-analysis of the deposited data

How the results depend on the processing

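With a distance of 200 bp, 10 of the 33 proteasome genes were bound (30.3%), against 948 protein-coding genes (4.75%), with 1 pas gene and 3 rpn genes among them; the summits of pas-5, pas-6, rpn-1, rpn-2, rpn-3, rpn-6.1, rpn-6.2, rpn-8 and rpt-6 lay farther out. With the stronger 50% of the peaks, 11 members were bound (33.3%), against 1065 genes (5.33%), with 1 pbs and 1 rpt gene. With the strongest nuclear candidates of 1 replicate alone, 16 to 18 members were bound, of which 3 pas, 2 to 5 pbs, 2 to 3 rpt and 7 to 9 rpn genes, against 1657 to 1790 genes. At 1000 bp the number of bound members was 19, against 2256 genes (11.3%), and with the nearest start alone 18, without rpt-4, against 1366 genes (6.84%). The SKN-1 sequence was at 5 proteasome peaks within 50 bp of the summit, against 2.8% of all reproducible peaks. With neighbours counted as close up to 1000 bp, 4 of 9 members so arranged were bound, against 7.24% of genes. The other counts stayed within 1.5 times of those reported. No paired analysis was possible because there is 1 group. The unknown depth means that a gene without a reproducible peak is not shown to lack EFL-1.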
